A study of Canis rufus and Canis latrans with 56 samples.

Results

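The 13 red wolves whose blood was profiled here were divided by a single transcript, that of MARCHF2, into 5 wolves in which its probe was bright and 8 in which it was near background, and every other probe was compared between these sides. A wolf counted as high where its MARCHF2 value was above 1 and as low where it was below 1. The wolves of each side were thus chosen by measured MARCHF2 values, not by a label of the study, so these values are a description with no test. The high side holds 5 of 14 animals and 20 of 56 arrays, and the low side 8 animals and 32 arrays. The other animal, a coyote, entered no comparison and helped only to estimate slide effects.

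The animals were red wolves (Canis rufus) with no treatment recorded. RNA of whole blood kept in RNAlater was amplified and biotin-labelled, and each animal's sample was read on 4 Illumina bead arrays designed for human genes. The design text counts 6 captive and 7 free-ranging wolves, of both sexes, but the labels used here do not say which wolf was which, and they give no age or kinship. A note of collection in the wild stands on arrays of slide 32010 alone, which held 5 low-side and 2 high-side wolves: 3 of these low-side wolves (11136, 111080 and 11310) and 0 of the high-side wolves carry it. The other 6 wolves had no array on that slide, so the absence of a note says nothing of them. Captivity, sex, age and relatedness therefore cannot be told apart from the sides with these labels.

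MARCHF2 encodes a membrane-bound ubiquitin ligase of the RING-CH type. Such ligases sit in endosomes and other membranes of the secretory pathway and attach ubiquitin to membrane proteins, which marks them for removal from the cell surface, sorting to lysosomes or degradation. Ubiquitin itself is passed along a chain of activating, conjugating and ligating enzymes, and many tagged proteins end in the proteasome, a barrel-shaped protease. In whole blood most cells are red cells, which keep RNA only while young, so transcripts of maturing red cells, white cells and platelets are measured together.

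Each wolf has 1 value per probe, a log2 intensity relative to the array mean with slide effects removed, and a difference is the mean of the high side (n = 5 wolves) minus the mean of the low side (n = 8), with the standard error of the limma fit. In the high-side wolves 10537, 11275, 11273, 11274 and 10632, MARCHF2 had values of 4.08, 3.48, 3.23, 3.12 and 2.10. On the low side it ran from -0.37 in wolf 111080 to 0.01 in wolf 11105, and the coyote had 0.04. The gap around the threshold is wide. Wolf 10632 is the lowest of the high side and wolf 11105 the highest of the low side, at 2.10 and 0.01. The residual SD between arrays was 0.261. The means of the sides were 3.20 and -0.18. MARCHF2 is read by 1 probe, designed for the human transcript, and the canid sequence that bound to it was not measured.

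**Figure D1:**
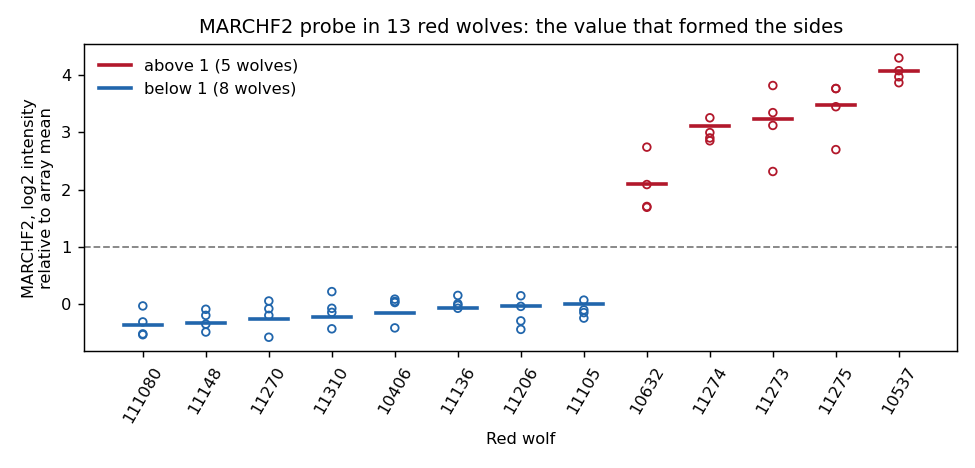
MARCHF2 in each of 13 red wolves, in log2 intensity relative to the array mean; bars are the values per wolf after removal of slide effects, circles the single arrays, and the dashed line the threshold of 1. The 5 high-side wolves lie between 2.10 and 4.08 and the 8 low-side wolves between -0.37 and 0.01.

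The arrays carried 24353 probes besides MARCHF2. The brightest of 42 liver and skeletal muscle genes on the arrays had a mean of 0.395, taken as the background bound, and 2073 probes with 1606 named genes lay above it. Pairs of arrays correlated across probes with a median r of 0.879 within an animal and 0.839 between animals. The 95th percentile of a wolf's arrays, a measure of their spread, ran from 0.679 to 0.851 on the high and from 0.381 to 0.866 on the low side, with wolf 11136 the lowest of all (means 0.755 and 0.705, exact permutation test, two-sided, p = 0.581). Of the markers of blood cells, 11 of 30 measured red cell genes, 2 of 18 platelet, 2 of 25 neutrophil, 2 of 17 monocyte, 3 of 20 T cell, 2 of 21 NK and cytotoxic, 2 of 9 eosinophil and basophil and 0 of 16 B and plasma cell genes lay above the bound. Red cell genes were thus the best represented of the blood markers on these human probes. Each of the 7 slides held arrays of both sides.

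No probe differed between the sides after correction for all probes tested. By limma on 1 value per wolf, 0 of 24353 probes (0%) had a Benjamini-Hochberg adjusted p under 0.05, and the smallest adjusted p was 0.264. Without correction, 867 probes (3.56%) had a p under 0.05 with a higher mean on the high side and 902 (3.7%) with a lower one, 1769 in all where 1218 would be expected if no probe differed and the p values were even. A test on the single arrays with wolf as a random block called 118 probes higher and 436 lower, with a shared correlation of 0.0760 between arrays of a wolf. Refitted on the probes above the bound, where that correlation was 0.546, it called 23 higher and 257 lower. These counts are given as an alternative, since the wolf and not the array is the replicate.

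Among the 2073 brighter probes the large differences lay below 0. Of these, 209 (10.1%) had an unadjusted p under 0.05 with a higher and 350 (16.9%) with a lower mean on the high side. Of the 2073, 156 have a mean above the bound on the low side alone and 66 on the high side alone. Such probes passed the bound through the side where they are bright, and they make up 90 of the 350 and 17 of the 209.

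A difference of at least 0.5 was reached by 26 probes upward and 208 downward, and a difference of at least 1 by 0 upward and 21 downward. The counts at 0.5 were 146 and 212 without a slide term, 80 and 150 with quantile normalization, 66 and 162 with arrays set to equal spread, and 1 and 166 without the 3 wolves with a wild note. With 1 wolf left out they ran from 5 (without wolf 11136) to 70 (without wolf 10632) upward and from 146 (without wolf 11273) to 301 (without wolf 10537) downward. The median difference was 0.05, with 1186 probes above 0 and 887 below. It was 0.11 without a slide term, 0.01 without wolf 11136 and -0.01 without the 3 wolves with a wild note, so the sign of this baseline is not settled. The balance of the uncorrected p values depended on the scaling and on single wolves. Without a slide term it was 575 higher and 346 lower, with arrays set to equal spread 412 and 306, with quantile normalization 401 and 344, and with median centring 136 and 330. Without wolf 11273 it was 79 (3.81%) and 205 (9.89%), without the 3 wolves with a wild note 30 and 297, and over all 13 omissions of a wolf the counts ran from 79 to 374 and from 205 to 463.

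**Figure D2:**
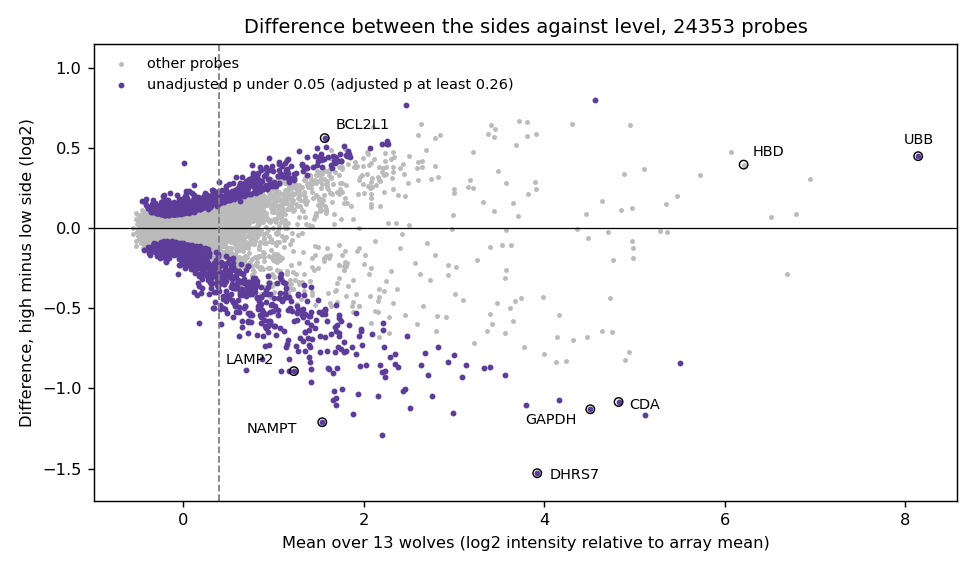
Each point is a probe, with its mean over 13 wolves on the horizontal axis and the difference of the sides on the vertical axis, both in log2 units; purple marks an unadjusted p under 0.05, and the dashed line is the background bound of 0.395. The largest differences lie below 0, down to -1.53 for DHRS7, and 0 probes reach a difference of 1 upward.

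The ubiquitin system was examined first, as the pathway in which MARCHF2 works. Of its family, 8 of 10 listed members other than MARCHF2 were measured, and only MARCHF7, a nuclear and cytosolic member also known as axotrophin, lay above the bound. It passed the bound through the low side, since its mean on the high side was 0.27. MARCHF7 stood at 0.56, 0.27, 0.07, 0.27 and 0.17 in the high-side wolves 10537, 11275, 11273, 11274 and 10632, and on the low side at 0.27 to 1.15 with a median of 0.85. The sides overlapped, because the low-side wolves 10406, 11136 and 11148 had 0.27, 0.28 and 0.32. The difference was -0.47 with a standard error of 0.14 (limma adjusted p = 0.335). The 7 other members measured, among them MARCHF1 and MARCHF5, were below the bound with differences between -0.01 for MARCHF3 and 0.07 for MARCHF4.

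Of 7 measured proteins described as partners or substrates of MARCHF2, only ERGIC3, a cargo receptor that cycles between the endoplasmic reticulum and the Golgi, was above the bound. Its values were 1.75, 1.31, 0.71, 1.04 and 1.31 in the high-side wolves, in the order given above, and 1.11 to 2.42 on the low side with a median of 2.09. Wolves 10537, 11275 and 10632 lay within the range of the low side. The difference was -0.66 with a standard error of 0.23 (limma adjusted p = 0.455). The other 6, which include the SNARE protein STX6 and the transferrin receptor TFRC, had differences from -0.03 for IKBKG to 0.05 for DLG1.

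Of 66 other RING and HECT ubiquitin ligases measured, 8 lay above the bound and all 8 had a lower mean on the high side. The difference had an unadjusted p under 0.05 in 6 of the 8, against 16.9% of all probes above the bound. When a wolf was left out it did so in 4 to 7. The count was 4 without wolf 11206, 11270 or 11273, against 13.2%, 13.3% and 9.89% of all, and 7 without wolf 11136, against 22.3%. However, 3 of the 8 ligases, 2 of them among the 6, are above the bound on the low side alone. Their median difference was -0.35, against 0.05 for all probes above the bound. None passed the corrected test. TRIM8, which modulates cytokine signalling, stood at 2.55, 1.48, 0.85, 1.33 and 1.37 on the high side and at 1.37 to 3.45 with a median of 2.77 on the low side (difference -1.05, limma adjusted p = 0.407). RNF145, a ligase of the endoplasmic reticulum that acts in sterol metabolism, lay between 0.43 and 0.67 in all 5 high-side wolves and between 0.33 and 2.05 on the low side, where wolf 10406 was lowest and wolf 11148 had 0.54. UBR2, which recognises proteins by their N-terminal residue, had a difference of -0.61 with a standard error of 0.19.

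Ubiquitin and its activating and conjugating enzymes were divided. Of 25 measured, 6 were above the bound, 3 with a higher and 3 with a lower mean on the high side. Of the 3 lower ones, 2 are above the bound on the low side alone. The ubiquitin gene UBB, the brightest of these probes, stood at 8.36, 8.61, 8.38, 8.57 and 8.17 on the high side and at 7.26 to 8.62 with a median of 7.99 on the low side. The difference was 0.45 with a standard error of 0.18 (limma adjusted p = 0.579), and the highest value was that of a low-side wolf. UBE2J2, a conjugating enzyme anchored in the endoplasmic reticulum, had 1.96, 2.02, 2.04, 1.88 and 1.73 against 0.87 to 1.95, a difference of 0.42. UBE2V1, a partner of conjugating enzymes that build signalling chains, had a difference of -0.48. The 3 deubiquitinating enzymes above the bound of 31 measured, OTUB1, UCHL3 and USP34, had differences of -0.32, -0.16 and -0.14. UCHL3 and USP34 passed the bound through the low side, with high-side means of 0.321 and 0.317.

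Proteasome subunits were lower on the high side in 10 of the 11 that lay above the bound, of 34 measured. In 8 of the 11 the difference had an unadjusted p under 0.05, against 16.9% of all probes above the bound. It did so in 5 without wolf 11273, where that share was 9.89%. Of the 8, 1 is above the bound on the low side alone. The median difference was -0.44. PSMA1, a subunit of the outer ring of the core particle, stood at 2.10, 1.45, 0.66, 1.25 and 1.03 on the high side and at 1.21 to 2.77 with a median of 2.62 on the low side. Wolf 11273 was the lowest of all 13 wolves, and the low-side wolves 10406 and 11148, at 1.21 and 1.65, lay within the range of the high side. The difference was -1.03 with a standard error of 0.27 (limma adjusted p = 0.303). The other 2 PSMA1 probes were below the bound, with differences of -0.01 and 0.07. PSMB5, which carries the chymotrypsin-like site, had a difference of -0.76 and PSMB3, a structural subunit, of -0.74. As a mean over the 11 subunits, the high-side wolves had 1.29, 0.97, 0.62, 0.92 and 0.89. The low-side wolves 10406, 11148 and 11136 had 0.92, 0.93 and 1.04 where the other 5 lay between 1.67 and 1.75.

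Of 58 genes of endosome sorting and SNARE membrane fusion, the compartment in which MARCHF2 is placed, 12 were above the bound, 8 lower and 4 higher on the high side. SNX2 and VPS29, parts of the machinery that returns cargo from endosomes, had differences of -0.77 and -0.58, and the recycling GTPase RAB11A of -0.46. SNX2 stood at 1.89, 1.17, 0.72, 0.93 and 1.29 on the high side and at 1.16 to 2.50 with a median of 2.15 on the low side, so that 2 high-side wolves, 11273 and 11274, lay below every low-side wolf. An unadjusted p under 0.05 was reached by 3 of the 12, 1 of them above the bound on the low side alone. All 3 were lower, a share not far from the 16.9% of all probes above the bound. The count was 7 without wolf 10406, 11136 or 11148 and 6 without wolf 10537, where the shares of all probes were 21.2%, 22.3%, 22% and 21.2%, and 3 without any other.

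LAMP2, a protein of the lysosomal membrane needed for the fusion of autophagosomes with lysosomes, was among the probes with the smallest p. Its brightest probe stood at 1.02, 0.81, 0.47, 0.46 and 0.61 on the high side and at 0.70 to 2.02 with a median of 1.75 on the low side. Only wolves 10406 and 11148, at 0.70 and 0.84, brought the low side into the range of the high side. The difference was -0.89 with a standard error of 0.19, the same sign on 7 of 7 slides and a limma adjusted p of 0.264 (exact permutation p, two-sided and uncorrected, 0.00932). LAMP2, ARHGAP15 and PRKAA1 were named for their small p in these data, so their exact p values are a description and no test. Another LAMP2 probe above the bound had a difference of -0.73, and one below the bound 0.03. Of 22 autophagy genes, 6 were above the bound: GABARAP and BECN1, which act in building the autophagosome, had differences of -0.48 and -0.45, and the list as a whole had 4 lower and 2 higher.

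**Figure D3:**
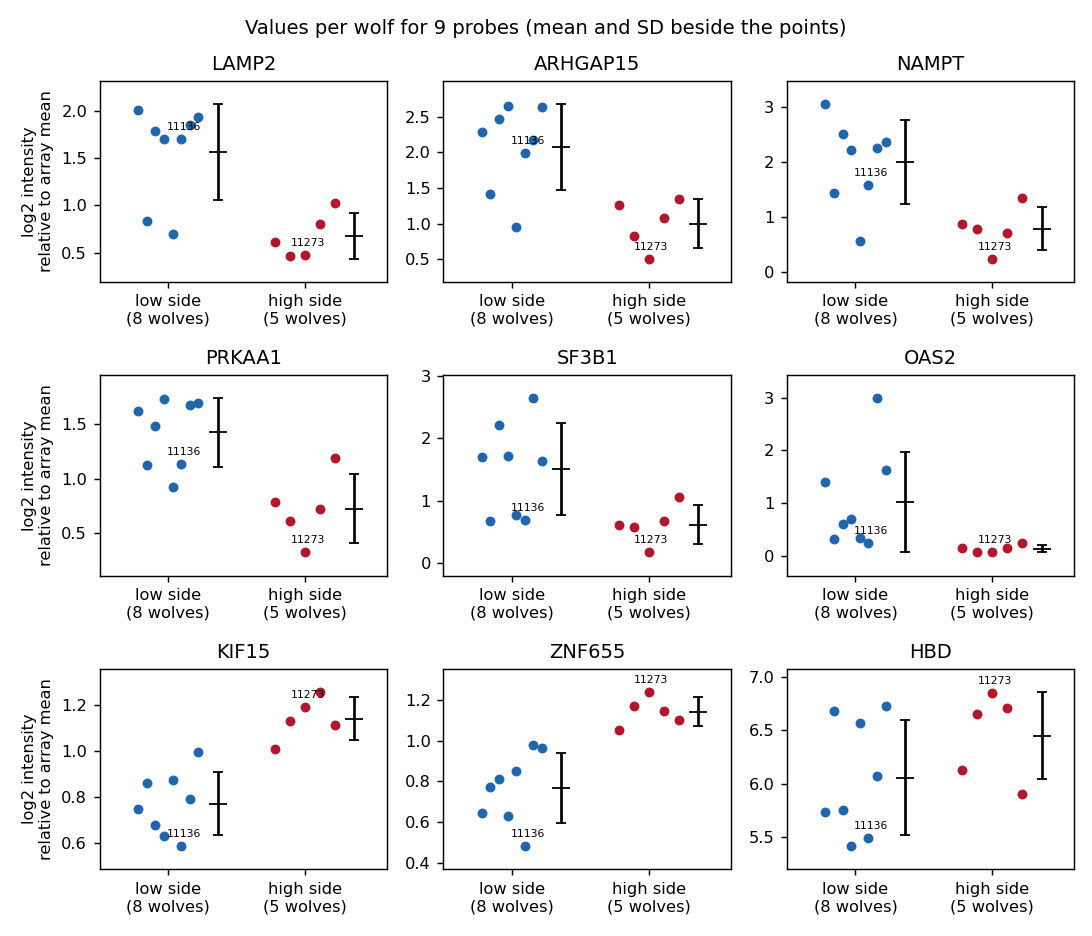
Values per wolf for 9 probes in log2 intensity relative to the array mean, low side in blue and high side in red, with the mean and SD of each side beside the points; wolves 11136 and 11273 are marked. LAMP2, ARHGAP15, NAMPT, PRKAA1 and SF3B1 overlap through a few low-side wolves, OAS2, KIF15 and ZNF655 do not overlap, and HBD overlaps widely.

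Splicing factors and hnRNP proteins, which bind and process nascent RNA, were the list with the most members above the bound. Of 49 measured, 21 were above it and all 21 had a lower mean on the high side, with a median difference of -0.52. An unadjusted p under 0.05 was reached by 10 of the 21, against 16.9% of all probes above the bound. It was reached by 6 without wolf 11273, against 9.89%, and by 15 without wolf 10406, 11136 or 11148, against 21.2%, 22.3% and 22%. All 21 were above the bound on both sides. U2AF1, which recognises the 3′ splice site, stood at 2.69, 1.75, 1.14, 1.53 and 2.08 on the high side and at 1.32 to 3.73 with a median of 3.03 on the low side. SF3B1, a core part of the U2 particle, stood at 1.06, 0.67, 0.17, 0.58 and 0.61 against 0.68 to 2.65 with a median of 1.67. The low-side wolves 11148, 11136 and 10406 had 0.68, 0.69 and 0.78 for SF3B1 and lay below wolf 10537. The differences were -1.0 for U2AF1, -0.89 for SF3B1 and -0.91 for the RNA helicase gene DDX5 (limma adjusted p = 0.487, 0.316 and 0.67).

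Genes of the actin cytoskeleton, which drives the shape and movement of white cells, were lower on the high side in 14 of the 17 above the bound, of 36 measured, with a median difference of -0.55. An unadjusted p under 0.05 was reached by 5 lower and 1 higher, against 16.9% and 10.1% of all probes above the bound. Of the 5, 1 is above the bound on the low side alone. The count of lower ones was 3 without wolf 11273 or 11275, against 9.89% and 13.6% of all. It was 8 without wolf 11148, against 22% of all, and 9 without wolf 10406, against 21.2%. Without wolf 10537 or 11136 it was 10, against 21.2% and 22.3%. ARPC2, a subunit of the complex that branches actin filaments, had 2.84, 2.30, 1.53, 2.09 and 2.61 on the high side and 1.99 to 4.12 with a median of 3.85 on the low side. Its difference was -1.15 with a standard error of 0.37, while another ARPC2 probe above the bound had 0.16. CDC42, a GTPase that directs cell polarity, had a difference of -0.89 and VASP, which elongates filaments, of -0.84. Other CDC42 probes, below the bound, differed by 0.016 and -0.026. ARHGAP15, which switches off the related GTPase RAC1 in white cells, stood at 1.34, 1.07, 0.51, 0.82 and 1.26 against 0.96 to 2.65 with a median of 2.23 on the low side. Its difference was -1.07 with a standard error of 0.24 (limma adjusted p = 0.264, exact permutation p = 0.00777 uncorrected), and only wolf 10406 of the low side lay below the highest high-side wolf.

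Of 40 translation factors measured, 13 were above the bound, 11 lower and 2 higher on the high side, with a median difference of -0.33. EIF4A2, EIF4G2 and EIF3L, which act in initiation, had differences of -0.87, -0.86 and -0.54. Of the 13, 4 had an unadjusted p under 0.05, against 16.9% of all probes above the bound. The count was 0 without wolf 11273, against 9.89%, and 1 without wolf 10632 or 11274, against 14% and 12.8%. It was 7 without wolf 11136 or 11148, against 22.3% and 22%. Among ribosomal proteins of the large subunit 10 of 12 above the bound were lower, with a median difference of -0.11; under quantile normalization 4 were lower and 8 higher, with a median of 0.03, so the direction turned. Under both, 0 had an unadjusted p under 0.05. RPL6 and RPL27 differed by -0.43 each. Those of the small subunit had a median of -0.01 in 5 members, and of 0.03 without wolf 10406; RPS14 differed by 0.07, which turned to -0.04 under quantile normalization, and RPS9 by -0.20, which turned to 0.06 under it.

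**Figure D4:**
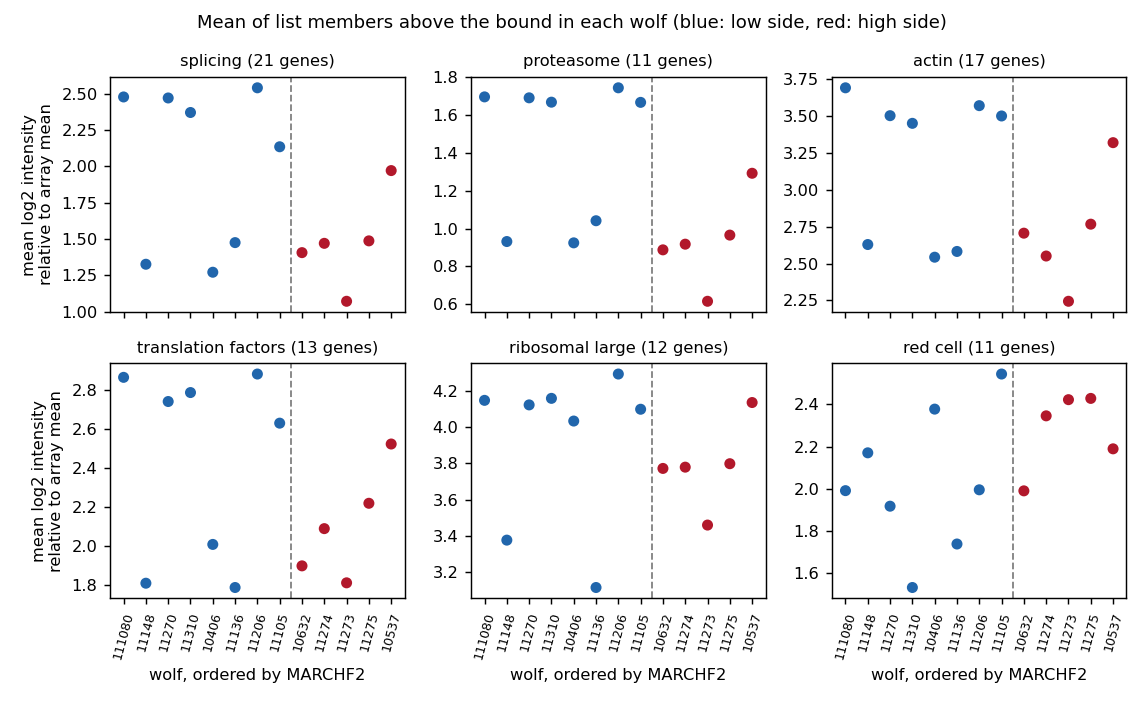
Mean of the members above the bound of 6 gene lists in each wolf, in log2 intensity relative to the array mean, with wolves ordered by MARCHF2 and the high side in red to the right of the dashed line. For splicing factors the high side runs from 1.07 to 1.97 and the low side from 1.27 to 2.54, and the low-side wolves 10406, 11136 and 11148 lie among the high-side wolves.

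Taken over all measured members, dim probes included, the medians were nearer 0, at -0.05 for 49 splicing genes, -0.05 for 34 proteasome genes, -0.09 for 36 actin genes, -0.03 for 40 translation factors and -0.02 for 66 ubiquitin ligases, against 0.01 for all 24353 probes. The division within the low side was alike in these lists. The mean over the 21 splicing genes was 1.27, 1.33 and 1.48 in wolves 10406, 11148 and 11136 and between 2.13 and 2.54 in the other 5. On the high side wolf 10537 had 1.97 and wolf 11273 had 1.07. The mean over the 17 actin genes was likewise 2.54, 2.63 and 2.58 in those 3 low-side wolves, between 3.45 and 3.69 in the other 5, and 3.32, 2.77, 2.24, 2.55 and 2.71 on the high side. Low values of these genes thus occurred in wolves with and without MARCHF2 signal, and wolf 10537, with the highest MARCHF2, had the highest mean of the high side in both lists. MARCHF2 falls into 2 separate clusters of wolves, so no correlation with it is given as a result.

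Genes of energy metabolism showed differences in both directions. GAPDH, the glycolytic enzyme often used as a reference, stood at 4.82, 3.95, 2.99, 3.28 and 4.03 on the high side and at 3.62 to 5.72 with a median of 5.13 on the low side. The difference was -1.13 with a standard error of 0.39 (limma adjusted p = 0.468). Of 6 glycolytic genes above the bound, TPI1 and ALDOA also had negative differences, -0.78 and -0.65, while 2 were positive. An unadjusted p under 0.05 was found in 3 lower and 1 higher of the 6, against 16.9% and 10.1% of all probes above the bound. Of the 3 lower ones, 1, ALDOA, is above the bound on the low side alone. Other ALDOA probes, below the bound, differed by 0.091, -0.127 and 0.0069. Of 72 genes of the respiratory chain and ATP synthase, 14 were above the bound, 9 lower and 5 higher, with a median of -0.23 and -0.12 without wolf 11273. NDUFV2 of complex I differed by -0.79, and the ATP synthase subunits ATP5F1A, ATP5F1B and ATP5F1C by -0.64, -0.54 and -0.45. PRKAA1, the catalytic subunit of the energy sensor AMPK, stood at 1.19, 0.72, 0.32, 0.61 and 0.79 on the high side and at 0.92 to 1.73 with a median of 1.55 on the low side. For PRKAA1 wolf 10537 alone of the high side overlapped the low side, and the difference was -0.70 with a standard error of 0.16 (limma adjusted p = 0.264, exact permutation p = 0.00388 uncorrected). MDH1, the cytosolic malate dehydrogenase, differed by -0.55.

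The largest difference in either direction was that of DHRS7, a dehydrogenase of the endoplasmic reticulum. DHRS7 stood at 2.29, 3.88, 2.19, 3.40 and 3.14 on the high side and at 3.30 to 5.66 with a median of 4.61 on the low side. Unlike for the lists above, wolf 10537 was near the bottom, beside wolf 11273, and 11275 and 11274 overlapped the low side. The difference was -1.53 with a standard error of 0.40 (limma adjusted p = 0.303, exact permutation p = 0.00622 uncorrected). DHRS7 was named by its r with MARCHF2 in these data, so its exact p is a description and no test. NAMPT, which makes the precursor of NAD and is abundant in neutrophils, stood at 1.35, 0.71, 0.25, 0.78 and 0.87 against 0.58 to 3.06 with a median of 2.25, a difference of -1.21. Other probes at -1 or below, chosen after their values were seen, were CHPT1 with -1.29, GGH with -1.17, CYSTM1 with -1.12, FLOT2 and AKIRIN2 with -1.10, STARD3NL with -1.06, RAB1A with -1.05 and QPCT with -1.02. The largest positive difference, likewise chosen after its value was seen, was 0.80 for TPGS1.

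Further probes with small p were lower on the high side and had adjusted p values of 0.264 by limma. TDG, a DNA glycosylase, had a difference of -0.73, CNOT11, a subunit of the complex that shortens mRNA tails, of -0.58, and RAMAC, a cofactor of mRNA cap methylation, of -0.42. EMC7, part of the complex that inserts membrane proteins into the endoplasmic reticulum, differed by -0.33. EMC7, CNOT11, MDH1 and ATP5F1C passed the bound through the low side, with high-side means of 0.19, 0.29, 0.21 and 0.20. VCP, ALDOA, GABARAP, YWHAZ, SOD2 and PSMB10 likewise passed it through the low side, with high-side means of 0.387, 0.32, 0.38, 0.36, 0.37 and 0.31. Of the 4 genes of endoplasmic reticulum folding and degradation above the bound, all 4 were lower, with VCP, the ATPase that extracts ubiquitin-tagged proteins from membranes, at -0.53, and the disulfide isomerases PDIA6 and PDIA3 at -0.41 and -0.31. Among chromatin proteins 5 were higher and 5 lower; HMGB2 differed by -1.16, H2AZ1 by -0.58 and HMGB1 by -0.53.

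Interferon-stimulated genes were divided. OAS2, an antiviral enzyme that senses double-stranded RNA, was the single probe above the bound that was lower in every high-side wolf than in every low-side wolf, 1 of 2073 (0.0482%). It passed the bound through the low side alone, so this place is partly set by the bound. OAS2 stood at 0.25, 0.17, 0.08, 0.08 and 0.15 on the high side, all below the bound, and at 0.26 to 2.99 with a median of 0.66 on the low side. The sides met at 0.25 in wolf 10537 and 0.26 in wolf 11136, and the difference was -0.89 with a standard error of 0.28 (limma adjusted p = 0.395). Its sister gene OAS1 had a difference of 0.33, with 2.43 to 2.88 on the high side and 1.66 to 2.94 on the low side. Other OAS1 probes, below the bound, differed by -0.011 and 0.00085. Of the 5 interferon genes above the bound of 31 measured, 2 were higher and 3 lower, with a median of -0.01 that turned to 0.03 without a slide term and to 0.0097 with quantile normalization, and the other 2 OAS2 probes, below the bound, differed by 0.01 and 0.04.

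In the other direction, 8 of 2073 probes above the bound (0.386%) were higher in every high-side wolf than in every low-side wolf, 7 of them with a gene name. Over all probes, bright and dim, the counts of sides that did not overlap were 35 higher (0.144%) and 15 lower (0.0616%). KIF15, a kinesin of the dividing spindle, stood at 1.11, 1.26, 1.19, 1.13 and 1.01 on the high side and at 0.59 to 1.00 with a median of 0.77 on the low side. The difference was 0.37 with a standard error of 0.10 (limma adjusted p = 0.335); the probe was named because its sides do not overlap. The zinc finger gene ZNF655 had 1.10, 1.15, 1.24, 1.17 and 1.05 against 0.48 to 0.98, a difference of 0.37. Other ZNF655 probes, below the bound, differed by -0.0030 and -0.026. Probes of CCDC102A, CPLX4, EDDM3A and SLC24A4 were also apart, with differences of 0.43, 0.42, 0.30 and 0.23. Another SLC24A4 probe, below the bound, differed by -0.079.

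The named probes that were apart and higher on the high side were dim, with side means between 0.47 and 1.40. Several belong to genes whose known expression lies outside blood: C8B, a complement protein made by the liver, was apart with a difference of 0.36, EDDM3A is known from the epididymis and CPLX4 from the retina. C8B lay above the bound although liver genes set that bound, so a level above it does not show that the named transcript is present. The low-side wolf 11136 was the lowest of the low side in KIF15, ZNF655, CCDC102A, CPLX4, EDDM3A, SLC24A4 and C8B. Wolf 11136 was the lowest of all 13 wolves in 844 of the 2073 probes (40.7%), wolf 11310 in 460 (22.2%) and wolf 11273 in 317 (15.3%). Without wolf 11136, 111 probes above the bound had an unadjusted p under 0.05 upward, where all 13 wolves gave 209.

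Red cell genes were higher on the high side in all 11 members above the bound, with a median difference of 0.21, and 1 of the 11, AHSP, the chaperone of alpha globin, had an unadjusted p under 0.05 with a difference of 0.21. This share is near the 10.1% of all probes above the bound. The count was 5 without a slide term, against 27.7% of all probes above the bound. It was 4 with quantile normalization or equal spread, against 19.3% and 19.9%. Without wolf 10632 or 11105 it was 3, against 15.6% and 18%. The count was 0 without wolf 10537, 11136, 11270, 11273, 11275 or 11310, against 6.51%, 5.35%, 6.9%, 3.81%, 5.55% and 5.4%. The median was 0.07 without the 3 wolves with a wild note and ran from 0.14 to 0.29 when 1 wolf was left out. HBD, a globin of the beta cluster, stood at 5.90, 6.71, 6.85, 6.66 and 6.13 on the high side and at 5.41 to 6.73 with a median of 5.91 on the low side. The sides overlapped over most of their range, and the difference was 0.40 with a standard error of 0.29 (limma adjusted p = 0.82). Near-identical globin copies cannot be separated by these probes. BNIP3L, which removes mitochondria from young red cells, differed by 0.48, the red cell membrane gene DMTN by 0.33, and BCL2L1, which keeps maturing red cells alive, by 0.56 with a standard error of 0.26. In bulk blood, fewer cells of a type and less RNA per cell cannot be told apart.

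Markers of white cells and platelets above the bound were few. CDA, an enzyme of neutrophils, stood at 5.20, 4.21, 3.32, 3.52 and 4.53 on the high side and at 3.56 to 6.14 with a median of 5.64 on the low side, a difference of -1.08 (limma adjusted p = 0.552). NCF1, the other neutrophil gene above the bound, differed by 0.05, and by -0.03 without the 3 wolves with a wild note. The T cell genes LCK, LEF1 and CD6 differed by 0.17, 0.06 and 0.03, and the cytotoxic genes CTSW and GZMB by 0.15 and 0.13. PF4, the platelet chemokine, had 1.79, 1.87, 1.94, 1.74 and 1.49 against 0.54 to 1.83, a difference of 0.44, while the platelet receptor gene GP1BB differed by 0.05. HDC and SIGLEC8, of basophils and eosinophils, differed by 0.17 and -0.01, and the monocyte-linked genes LGALS1 and TYROBP by 0.37 and -0.04. The difference of LGALS1 ran from 0.08 to 0.81 when 1 wolf was left out. The signs of SIGLEC8 and TYROBP turned without a slide term. The part of cell composition in the differences was not tested.

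Immediate-early genes, which respond within minutes to a stimulus, were lower on the high side in 9 of the 11 above the bound. The median was -0.40, and -0.15 without the 3 wolves with a wild note. Without wolf 11310, 7 were lower and 4 higher, with a median of -0.23. An unadjusted p under 0.05 was reached by 1 of the 11, lower, against 16.9% of all probes above the bound. That count was 0 without wolf 11273 or 11310, against 9.89% and 14.4% of all. It was 4 without wolf 10537 or 11148, against 21.2% and 22% of all. JUND, BTG1 and KLF6 had differences of -0.64, -0.65 and -0.51, and their sides overlapped. Of the genes linked to glucocorticoid response, CEBPB differed by -0.77, KLF9 by -0.40 and CEBPD by 0.20. Heat shock and chaperone genes were 4 lower and 2 higher, with HSPH1 at 0.50, DNAJA2 at -0.58 and DNAJA1 at -0.21. The antioxidant genes SOD2, GCLC and TXNRD1 differed by -0.41, 0.09 and 0.04. Of genes of class I antigen presentation, B2M, the light chain of the complex, differed by 0.27 and the immunoproteasome gene PSMB10 by -0.26, and HLA-DMA of class II by 0.12.

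The remaining lists had few members above the bound. Of apoptosis genes 4 lay above it, 3 higher and 1 lower on the high side, with the pore-forming BAX at 0.25 and the caspase gene CASP10 at -0.24. The 2 genes of inflammation above the bound, IKBKB and ICAM1, differed by 0.09 and 0.02, and ICAM1 by -0.01 without the 3 wolves with a wild note. CCND3, a cyclin and the only one of 26 proliferation genes above the bound, differed by -0.66. Among genes often used as references, YWHAZ differed by -0.58 and ACTB by -0.29. Of 7 genes measured from a list of the X inactivation transcript and Y-linked genes, 0 lay above the bound.

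**Figure D5:**
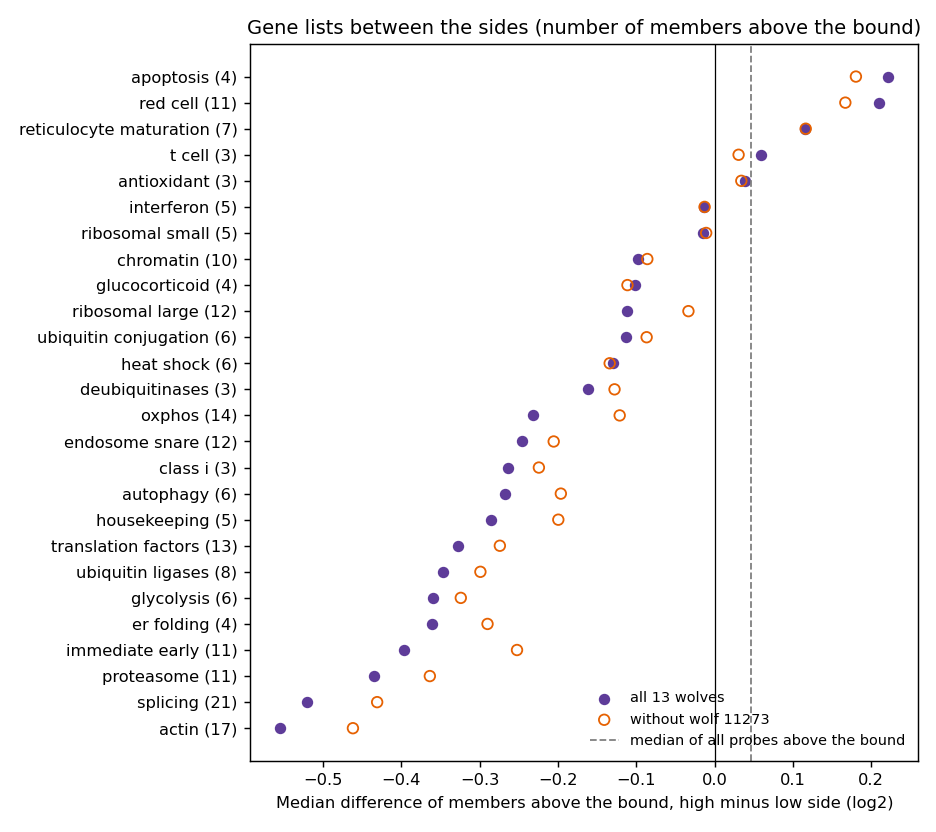
Median difference between the sides over the members above the bound of the 26 gene lists with at least 3 such members, with all 13 wolves (filled) and without wolf 11273 (open); the dashed line is the median of all probes above the bound, 0.05, and the number of members stands in brackets. Actin, splicing and proteasome genes lie at -0.55, -0.52 and -0.44, and red cell genes at 0.21.

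Further probes were named by the size of Pearson's r with MARCHF2 over the 13 wolves, among probes above the bound. MARCHF2 formed the sides and falls into 2 clusters, so this order restates the division of the wolves and is no result. The most alike were KIF15, EDDM3A, UNC45A, PPP1R1B and IL16, and the most opposed DHRS7, RAMAC, EMC7, ARHGAP15 and PRKAA1. IL16, a cytokine precursor of lymphocytes, stood at 0.95, 0.94, 1.02, 1.07 and 0.84 on the high side and at 0.43 to 0.86 on the low side, a difference of 0.31, while another IL16 probe above the bound differed by 0.07. Other positive differences with small p were those of LRRC49 at 0.41, FAM9B at 0.34, COXFA4L3 at 0.29, LEMD2 at 0.28 and the cell-cycle inhibitor gene CDKN1A at 0.24, each with limma adjusted p values between 0.303 and 0.389. COXFA4L3 and CDKN1A passed the bound through the high side, with low-side means of 0.29 and 0.33. Another probe of each, below the bound, differed by 0.0038 and -0.06. CEBPD, GZMB and GP1BB also passed it through the high side, with low-side means of 0.368, 0.388 and 0.376.

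Of the 115 probes named by rule, 76 had the direction of the fit on all 7 slides. Wolf 11273 had the lowest value of the 13 in 50 of them and wolf 11136 in 31. Leaving out wolf 11273 raised the smallest adjusted p to 0.950. Leaving out the low-side wolf 10406 gave 1 probe higher and 55 lower at an adjusted p under 0.05, with NAMPT, ARHGAP15, LAMP2, PSMA1 and PRKAA1 among the lower ones, and leaving out wolf 11148 gave 5 lower, of MDH1, NCOA1, LMNB1, ATP5F1C and LAMP2.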

How the data were processed

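RNA from whole blood of 14 animals was measured on 56 human bead arrays, 4 per animal, on 7 slides. The log2 intensities were deposited by the authors after median centring of each array, per the labels' design text. The submitters' processing notes name BeadStudio 1.5.0.34. The deposited values instead have an array mean of 0 (largest absolute mean 3.24e-09), and they were used as deposited. No counts exist, and the number of wolves limits precision.

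Animal and slide effects were fitted over all 56 arrays by least squares in R 4.3.3 (slide effects sum to 0), which gave 1 value per wolf. The sides were compared with lmFit and eBayes of limma 3.58.1 with an intensity trend, on 11 residual degrees of freedom. Tests were two-sided, with Benjamini-Hochberg adjustment at 0.05. MARCHF2 was left out. The procedure was run on simulated data with genes drawn independently, to check the estimates of known differences. That run is no support for the absence of calls. The standard error is that of the moderated fit.

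Gene names are those of the human probes: 18339 of 24354 probes have 1 symbol, 0 several and 6015 none. No canid genome was used. In the 40 gene lists a gene is its probe with the highest mean. Other probes of BAX, BCL2L1, CASP10, UBE2J2, UBE2V1 and YWHAZ, below the bound, differed by 0.064, 0.109, -0.038, 0.114, 0.040 and -0.056. Those of PPP1R1B, likewise below it, differed by 0.168 and -0.094. Genes were named by rule: per direction the 10 smallest p above the bound, up to 10 whose sides do not overlap, 3 members per list by size of difference, MARCHF relatives, and the 5 most and least like MARCHF2. The members and lists were chosen with earlier results of these data known. Another 28 settings were tried; random blocks on brighter probes only were added after the data were seen.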

Additional observations from a re-analysis of the deposited data

Results flagged for a closer look

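Values that stood apart within a side were sought in 230 groups (115 probes on both sides) with Dixon's test at the 95% level. Chance alone passes this test in about 1 of 20 groups. Only 5 passed, a smaller share than that, so these values are not shown to stand apart beyond chance. On the high side wolf 10537 was far above the others for CEBPB, a transcription factor of myeloid cells, at 5.47 with the next wolf at 4.37, and for OTUB1, a deubiquitinating enzyme, at 1.40 with the next at 0.90. Wolf 10632 was far below the other high-side wolves for B2M, at 0.61 with the next at 1.00, and for PPP1R1B, a phosphatase inhibitor, at 0.59 with the next at 0.85. On the low side wolf 11136 was far below the others for CCDC102A, at 0.19 with the next at 0.67.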

How the results depend on the processing

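The 0 calls at an adjusted p under 0.05 held in every setting but 4: single arrays with wolf as a random block (118 higher, 436 lower), that fit on probes above the bound (23 and 257), and omission of wolf 10406 or 11148, the range over 13 omissions being 0 to 1 higher and 0 to 55 lower. Probes whose sides did not overlap numbered 35 higher and 15 lower with all wolves; the counts were 67 and 24 without a slide term, 67 higher with equal spread, 75 higher with quantile normalization, 8 and 1 above the bound, 19 and 6 with a mean above 0, 142 and 58 without the 3 wolves with a wild note, and 40 to 117 and 17 to 61 when 1 wolf was left out. The cause was not tested, except that fewer wolves or probes were compared in the last 4. The T cell list median was 0.06, and 0.19 without a slide term. Of 546 list medians under other settings 10 had the other sign: those of large ribosomal proteins with quantile normalization (0.03), interferon genes without a slide term (0.03), with quantile normalization (0.0097) and in 5 omissions of a wolf (up to 0.0068), and small ribosomal proteins in 2 omissions (up to 0.03). Of 3220 values of named probes under other settings 3199 kept their sign and 21 turned, all within 0.2 of 0. These were RPS9 and RPS14 with quantile normalization (0.058 and -0.040), TYROBP without a slide term (0.038), SIGLEC8 without a slide term (0.152), with equal spread (0.036), with quantile normalization (0.025) and with MARCHF2 as a number (0.0062), and ICAM1, NCF1 and LEF1 without the wild-noted wolves (-0.010, -0.032 and -0.030). With 1 wolf left out TYROBP ran from -0.089 to 0.0100, SIGLEC8 from -0.056 to 0.033, ICAM1 from -0.010 to 0.054, CD6 from -0.0017 to 0.060 and RPS14 from -0.012 to 0.147. Only 2073 of 24353 probes lay above the background bound, and signal over background limits what the others can show.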
